A study of Mus musculus with 24 samples.

Results

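The glycolytic enzymes that have a male germ cell form were followed in juvenile mouse testis, together with the somatic forms they stand beside. The set holds 10 genes, chosen by name, of the 24456 gene rows in the count tables: the germ cell forms *Gapdhs*, *Pgk2*, *Ldhc*, *Aldoart1*, *Aldoart2* and *Eno4*, and the counterparts *Pgk1*, *Ldha*, *Ldhb* and *Aldoa*. All 10 passed the filter on low counts.

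RNA was extracted from testes of wild-type (WT) and *Atad2* knockout (KO) mice in the first spermatogenic wave, when the oldest germ cells of every tubule advance together from meiosis to the first haploid cells. The KO mice are homozygous for an allele in which a *lacZ* reporter cassette interrupts *Atad2* and from which Cre recombinase, driven by a ubiquitous promoter, has removed the selection cassette and a downstream exon. The gene is therefore lost in every cell of the body, somatic cells of the testis included. The groups were 4 WT and 4 KO libraries at day 20 post-partum, 4 and 4 at day 22, 2 and 2 at day 24, and 2 and 2 at day 26, and the labels name no treatment. Libraries are named by genotype, day and replicate number, as in WT_d20_2. The labels do not say whether each library came from a separate animal, while the study's methods call them biological replicates, so p-values measure the spread between these libraries.

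Read pairs assigned to genes numbered 10709667 to 19491935 per library. WT_d20_2 was the shallowest and stood apart, with 13.7% of its pairs aligned to several places against at most 9.16% in any other library. *Atad2* itself was lower in every KO library than in every WT library of the same day. Its mean level at day 20 was 109 CPM (read pairs of the gene relative to the scaled library size) in WT and 34.0 CPM in KO, a log2 fold change of -1.67 ± 0.184 (SE), and pairs from the part of the transcript kept in the KO allele still count toward it. Testis markers fixed by name were present: Sertoli cell markers summed to 1080 to 2380 CPM over the WT libraries, and pachytene spermatocyte markers to 1640 to 3980 CPM. Elongating spermatid markers summed to 1.26 to 9.00 CPM in WT at day 20 and to 1900 to 3010 CPM in WT at day 26.

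Glycolysis splits glucose to pyruvate, and lactate dehydrogenase links pyruvate to lactate. Germ cells replace several of these somatic enzymes by forms of their own, some made from intron-containing genes and some from retrogenes, which are intronless copies of a spliced transcript. The sperm forms are largely bound to the flagellum, where glycolysis supplies the movement of sperm. *Pgk1* lies on the X chromosome, which is silenced during male meiosis, while its retrocopy *Pgk2* is autosomal. *Gapdhs* encodes the sperm glyceraldehyde-3-phosphate dehydrogenase, *Aldoart1* and *Aldoart2* encode aldolases, *Pgk2* phosphoglycerate kinase, *Eno4* an enolase of the sperm tail and *Ldhc* the lactate dehydrogenase of spermatocytes and sperm.

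The structure of the genes sets how well each can be counted. All positions are on mm10, with exon numbers of the longest transcript in GENCODE M21. *Aldoart1* (chr4:72850583-72852634, minus strand), *Aldoart2* (chr12:55565239-55566896, plus strand) and *Pgk2* (chr17:40207015-40208640, minus strand) have 1 exon each. Their parent genes are *Aldoa* (chr7:126795234-126800751, minus strand, 10 exons) and *Pgk1* (chrX:106187100-106203699, plus strand, 11 exons). *Ldha* (chr7:46841475-46855627, 8 exons) and *Ldhc* (chr7:46861203-46878142, 8 exons) lie next to each other on the plus strand. *Gapdhs* (chr7:30729775-30743681, minus strand, 11 exons), *Ldhb* (chr6:142490249-142507957, minus strand, 8 exons) and *Eno4* (chr19:58943425-58971421, plus strand, 14 exons) complete the set.

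The copies have diverged to different degrees. Along aligned transcript, *Aldoart1* shared 93.39% of bases with *Aldoa*, *Aldoart2* shared 91.21% with *Aldoa*, *Pgk2* shared 79.74% with *Pgk1* and *Ldhc* shared 76.33% with *Ldha*. Of all 75-base windows, the read length, 52.8% of those in *Pgk1* also occur in other annotated genes, mainly processed copies, against none in *Pgk2*, *Ldhc* and *Aldoart2* and 0.961% in *Aldoart1*. The share was 12.6% for *Ldhb*, 3.43% for *Eno4*, 2.69% for *Ldha*, 1.24% for *Gapdhs* and 0.672% for *Aldoa*. Pairs with several alignments were discarded by the authors, so the level of *Pgk1* in particular is a lower estimate, and ratios over it are upper estimates. *Gapdhs*, *Eno4* and *Aldoa* overlap genes on the other strand, which the strand-specific counting separates.

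The 250 bases before the start of transcription are shown for *Ldhc* and *Ldha*, which are neighbours on the chromosome, for *Pgk2* and its parent *Pgk1*, and for *Gapdhs* and *Aldoart2*, whose levels moved most. The sequences are those of RefSeq on GRCm38.p6 and run 5′ to 3′ toward the start. The *Ldha* start used by RefSeq lies 4329 bases inside the 5′ end of the GENCODE gene. Those of *Ldhc* and *Pgk2* lie 60 and 31 bases inside it, and that of *Aldoart2* lies 34 bases outside it. Capitals mark a cyclic AMP response element (TGACGTCA), its half-site (TGACG), a GC box (GGGCGG) or a MYB core (AACGG) on either strand, and the half-site is counted again inside the full element.
Ldhc, chr7:46861013-46861262 (plus strand): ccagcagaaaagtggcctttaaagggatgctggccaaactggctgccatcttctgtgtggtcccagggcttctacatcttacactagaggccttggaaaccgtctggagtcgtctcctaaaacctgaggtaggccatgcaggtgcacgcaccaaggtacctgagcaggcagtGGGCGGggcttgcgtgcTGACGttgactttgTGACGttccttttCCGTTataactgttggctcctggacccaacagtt
Ldha, chr7:46845554-46845803 (plus strand): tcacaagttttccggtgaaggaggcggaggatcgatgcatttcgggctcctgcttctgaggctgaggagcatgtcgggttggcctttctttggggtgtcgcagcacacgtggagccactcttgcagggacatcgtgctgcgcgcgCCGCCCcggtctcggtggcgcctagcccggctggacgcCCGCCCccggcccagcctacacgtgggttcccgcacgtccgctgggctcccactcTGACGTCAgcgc
Pgk2, chr17:40208610-40208859 (minus strand): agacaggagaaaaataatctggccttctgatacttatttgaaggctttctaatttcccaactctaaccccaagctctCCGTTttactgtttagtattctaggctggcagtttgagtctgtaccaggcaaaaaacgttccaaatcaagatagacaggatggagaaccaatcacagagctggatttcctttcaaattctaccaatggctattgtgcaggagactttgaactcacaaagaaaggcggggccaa
Pgk1, chrX:106186850-106187099 (plus strand): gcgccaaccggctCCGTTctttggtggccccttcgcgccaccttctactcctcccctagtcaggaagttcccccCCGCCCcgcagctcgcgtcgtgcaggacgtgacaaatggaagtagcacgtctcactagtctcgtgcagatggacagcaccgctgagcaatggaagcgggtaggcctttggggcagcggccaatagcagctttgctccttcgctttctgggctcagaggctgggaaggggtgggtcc
Gapdhs, chr7:30743682-30743931 (minus strand): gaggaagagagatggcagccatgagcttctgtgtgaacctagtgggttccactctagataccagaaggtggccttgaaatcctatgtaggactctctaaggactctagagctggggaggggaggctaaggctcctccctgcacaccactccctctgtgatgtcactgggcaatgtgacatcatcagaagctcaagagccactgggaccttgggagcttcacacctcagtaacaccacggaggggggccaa
Aldoart2, chr12:55564955-55565204 (plus strand): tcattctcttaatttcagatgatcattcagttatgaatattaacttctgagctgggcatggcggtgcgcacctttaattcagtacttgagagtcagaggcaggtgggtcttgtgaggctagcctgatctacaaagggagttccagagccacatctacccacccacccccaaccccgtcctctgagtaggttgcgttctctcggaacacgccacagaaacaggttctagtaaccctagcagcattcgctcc

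The *Ldhc* window held 2 half-sites, at 61 and 47 bases before the start, a GC box at 78 and a MYB core at 34. The *Ldha* window held a full element at 12 bases, whose half-sites begin at 12 and 9, and GC boxes at 105 and 67. The *Pgk2* window held a MYB core at 173, and that of *Pgk1* a GC box at 176 and a MYB core at 237. None of these letters, nor TATAAA, was found in the windows of *Gapdhs* and *Aldoart2*. Over 32851 mouse promoters of this length, 1.55% held the full element, 17.77% a half-site, 32.74% a GC box, 14.53% a MYB core and 12.37% TATAAA. Matches are given as a description of the windows.

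At day 20 the germ cell forms differed widely in level, and *Ldhc* was far ahead. Per kilobase of merged exons, WT libraries at day 20 held *Ldhc* at 676 ± 125 CPM per kb (SD, n = 4), followed by *Ldha* at 116 ± 19.1 and *Ldhb* at 92.9 ± 6.43, whose libraries overlapped. *Aldoa* (66.5 ± 12.2) and *Pgk2* (50.5 ± 12.1) came next and also overlapped each other. *Eno4* (7.03 ± 2.28) and *Pgk1* (5.26 ± 0.968) overlapped at a lower level. *Aldoart2* (0.637 ± 0.238), *Aldoart1* (0.352 ± 0.171) and *Gapdhs* (0.234 ± 0.234) stood lowest, each overlapping the next. The last 3 were close to the limit of detection, with 1 to 13 *Gapdhs* pairs per WT library, where 3 pairs correspond to 0.173 to 0.316 CPM.

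At day 26 the order had changed. *Ldhc* was at 1273 ± 42.4 CPM per kb (SD, n = 2) in WT, *Pgk2* at 258 ± 17.4, *Ldha* at 203 ± 11.7 and *Gapdhs* at 142 ± 19.4. *Aldoa* (83.0 ± 10.5), *Aldoart2* (64.2 ± 0.205), *Ldhb* (55.5 ± 8.56), *Aldoart1* (24.2 ± 1.29), *Eno4* (19.2 ± 3.82) and *Pgk1* (5.91 ± 0.221) followed, with no overlap between neighbours in the 2 libraries. *Gapdhs* had moved from rank 10 to rank 4. With the length of the longest transcript, *Ldha* stood above *Pgk2*, and *Ldhb* stood above *Aldoart2* by mean, with overlapping libraries. With that length *Gapdhs* also overlapped *Aldoa*. The KO libraries at day 26 gave the same order by merged exons as the WT libraries, from *Ldhc* at 1555 ± 42.4 to *Pgk1* at 3.84 ± 0.120 CPM per kb.

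**Figure D1:**
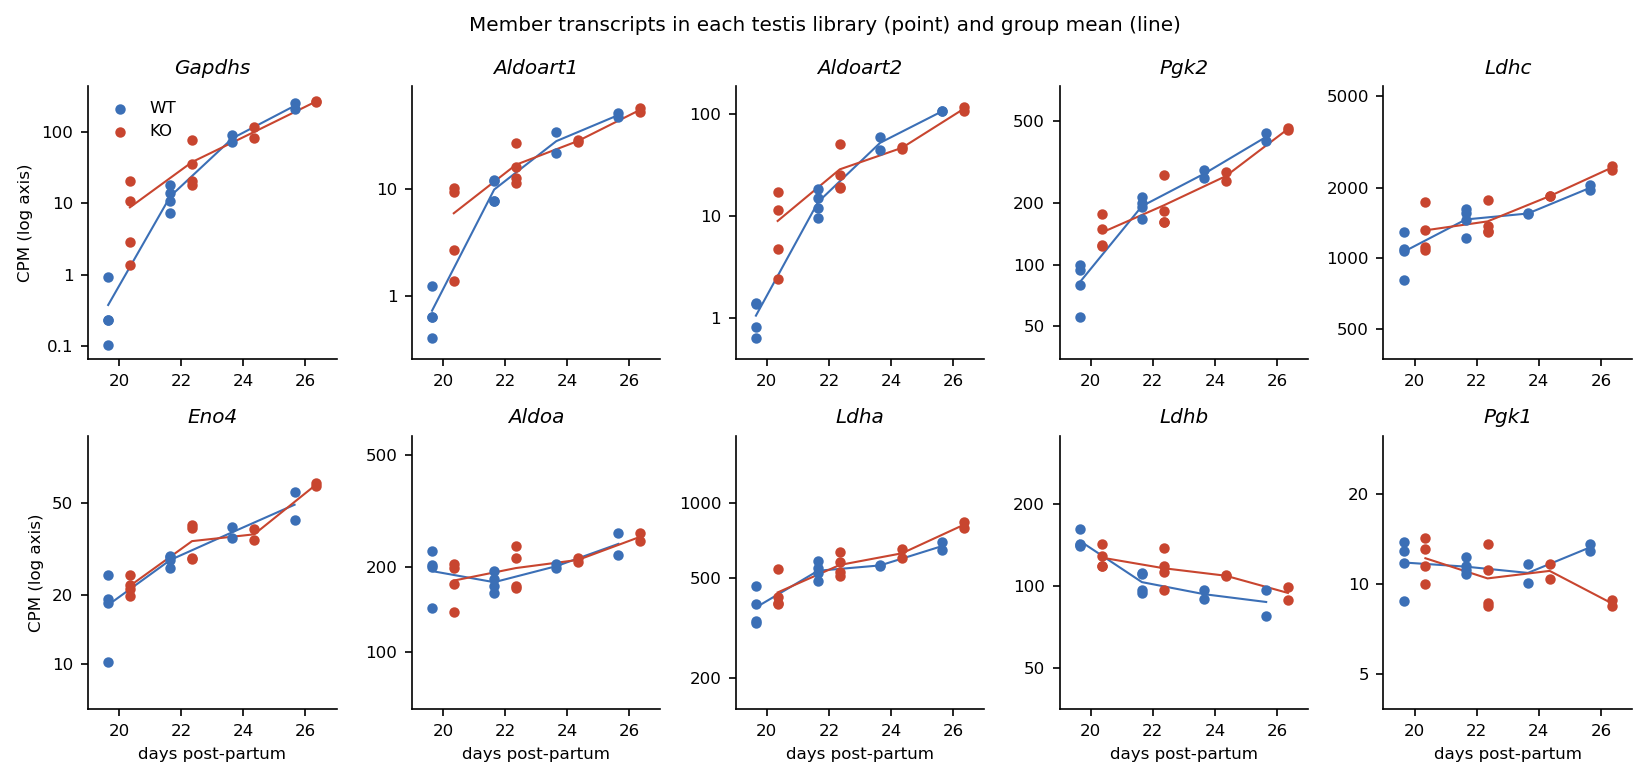
Level of each gene in CPM (log axis) against age in days post-partum, with 1 point per library (WT blue, KO red, shifted sideways for clarity) and a line through the group means. *Gapdhs*, *Aldoart1* and *Aldoart2* rose from 1.42 CPM or less in WT at day 20 to between 47.7 and 251 CPM at day 26, and the KO points lie above the WT points at day 20 in these panels and in that of *Pgk2*.

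*Gapdhs*, *Aldoart1* and *Aldoart2* made the steepest rise of the 10 genes with age. In WT, *Gapdhs* was at 0.236, 0.105, 0.231 and 0.936 CPM in the 4 libraries of day 20, at 17.8, 7.36, 13.8 and 10.7 CPM at day 22, at 89.7 and 71.2 CPM at day 24 and at 251 and 206 CPM at day 26. No library of one day overlapped those of another. Of all genes, 27.9% were higher in every WT library of day 26 than in every one of day 20. The same share was 13.2% for day 22 over day 20, 18.3% for day 24 over day 22 and 26.6% for day 26 over day 24. The log2 fold change of day 26 over day 20 was 9.16 ± 0.906 (SE; edgeR quasi-likelihood test, adjusted p = 2.91e-07), a fold of 571 that rests on few pairs at day 20. Without single libraries the log2 fold change ran from 8.89 to 10.06, the highest without WT_d20_4.

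The aldolase retrogenes were also higher at each later day, going from levels above those of *Gapdhs* in every WT library of day 20 to levels below it at days 24 and 26. *Aldoart2* was at 1.42, 0.632, 0.809 and 1.37 CPM at day 20 in WT, at 18.4, 9.53, 14.9 and 11.9 CPM at day 22, at 59.9 and 44.4 CPM at day 24 and at 107 and 106 CPM at day 26. *Aldoart1* was at 0.629, 0.632, 0.405 and 1.22 CPM at day 20, at 12.3, 7.69, 11.9 and 7.77 CPM at day 22, at 34.5 and 21.9 CPM at day 24 and at 47.7 and 51.4 CPM at day 26. Again the days did not overlap, beside the shares of all genes given for *Gapdhs*. From day 20 to day 26 *Aldoart2* rose by 6.63 ± 0.586 and *Aldoart1* by 6.10 ± 0.599 on the log2 scale (adjusted p = 1.13e-07 and 2.69e-07, edgeR). *Aldoart2* exceeded *Aldoart1* per kilobase in every library, by 1.24 to 2.78 times in WT at day 20 and 2.55 to 2.77 times in WT at day 26.

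*Pgk2*, *Ldhc* and *Eno4* were present from the start and rose less. *Pgk2* was at 79.7, 99.3, 55.3 and 94.0 CPM in WT at day 20, at 213, 167, 192 and 199.7 CPM at day 22, at 289 and 265 CPM at day 24 and at 439.5 and 399.6 CPM at day 26. Its days were fully separated, as days 20 and 26 were for 27.9% of all genes with day 26 above. The log2 fold change from day 20 to day 26 was 2.36 ± 0.205 (adjusted p = 5.33e-08, edgeR). *Eno4* rose from 10.2 to 24.4 CPM at day 20 to 42.3 and 56.2 CPM at day 26 (log2 fold change 1.44 ± 0.208, adjusted p = 9.58e-06). *Ldhc* rose from 812 to 1293 CPM at day 20 to 1964 and 2059 CPM at day 26 (log2 fold change 0.91 ± 0.185, adjusted p = 0.000438).

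The 4 counterparts took 3 courses. *Ldha*, the lactate dehydrogenase subunit of muscle, rose in WT from 330 to 467 CPM at day 20 to 646 and 700.2 CPM at day 26, by 0.82 ± 0.146 on the log2 scale (adjusted p = 0.000124, edgeR). *Ldhb*, the heart subunit, fell from 139.5 to 161 CPM to 77.6 and 96.6 CPM, with a log2 fold change of -0.74 ± 0.138 (adjusted p = 0.000179). *Aldoa* (0.32 ± 0.174, adjusted p = 0.146) and *Pgk1* (0.17 ± 0.192, adjusted p = 0.493) did not pass the test in WT. With the replicate number as a block *Aldoa* was called there (0.41, adjusted p = 0.0495). The rise of *Ldha* had a size close to that of *Ldhc*, and *Pgk1* stayed between 8.80 and 13.8 CPM in all 12 WT libraries. Summed Sertoli cell markers were at 1660 to 2380 CPM in WT at day 20 and at 1080 to 1250 CPM at day 26. Spermatogonial markers also fell, from 260 to 346 CPM to 182 to 208 CPM, as did early meiotic, peritubular myoid and endothelial markers. Leydig cell markers rose from 348 to 454 CPM to 1260 to 2050 CPM, and pachytene, round and elongating spermatid markers rose as well. The part of these cells in the result was not tested.

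Counted over the set, 8 of 10 genes passed the test between day 26 and day 20 in WT, 7 higher and 1 lower. Of all 17170 genes tested, 24.4% were called higher and 18.1% lower in that comparison. In KO all 10 were called, 8 higher and 2 lower, beside 27.2% called higher and 24.9% lower over all genes. *Gapdhs* rose there by 4.92 ± 0.678, *Aldoart2* by 3.65 ± 0.487 and *Aldoart1* by 3.22 ± 0.493 on the log2 scale, from a higher start at day 20. Without single libraries the value of *Gapdhs* ran from 4.56, without KO_d20_2, to 5.74, without KO_d20_4. The KO call of *Pgk1* (log2 fold change -0.50 ± 0.198, adjusted p = 0.0394) was lost in 5 of the alternatives, among them RLE scaling (adjusted p = 0.0863) and DESeq2 (adjusted p = 0.0873), and without KO_d20_1, KO_d20_3, KO_d26_1 or KO_d26_2 (adjusted p up to 0.168). That of *Aldoa* (0.51 ± 0.173, adjusted p = 0.017) was lost with scaling to total counts (adjusted p = 0.185) and without KO_d20_2, KO_d26_1 or KO_d26_2 (adjusted p up to 0.132). That of *Ldhb* (-0.43 ± 0.136, adjusted p = 0.0119) was lost without KO_d26_2 (adjusted p = 0.112).

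The steps between days were tested in turn. From day 20 to day 22 in WT, 8 of the 10 genes were called, beside 20.0% of all genes, with *Gapdhs* at 4.96 ± 0.878, *Aldoart1* at 3.78 ± 0.563, *Aldoart2* at 3.67 ± 0.540 and *Pgk2* at 1.23 ± 0.177 on the log2 scale. *Eno4* (0.64 ± 0.178), *Ldha* (0.49 ± 0.123) and *Ldhc* (0.46 ± 0.155) also rose in this step and *Ldhb* (-0.50 ± 0.109) fell. With only these 2 days in the fit, 5 members were called, beside 9.06% of all genes. From day 22 to day 24 *Gapdhs* (2.69 ± 0.646, adjusted p = 0.017) and *Aldoart2* (1.93 ± 0.478, adjusted p = 0.0204) were called, beside 5.92% of all genes. With the replicate number as a block that of *Aldoart2* was lost (adjusted p = 0.0519) and *Gapdhs* was kept (adjusted p = 0.044). Both calls were lost without any one of WT_d22_2, WT_d22_3, WT_d22_4, WT_d24_1 or WT_d24_2, and 5 members were called when only these 2 days were fitted, beside 9.48% of all genes. From day 24 to day 26 no member was called by edgeR, beside 0.274% of all genes. *Pgk2* alone had an unadjusted p under 0.05 in that step, at 0.60 ± 0.245 on the log2 scale, and 3 members were called when only these libraries were fitted, beside 4.26% of all genes.

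Within a library, the balance between a germ cell form and its counterpart shifted by amounts that differed between enzymes. The ratio of *Gapdhs* to *Gapdh*, the somatic enzyme, per kilobase of merged exons was 0.00115 to 0.0108 in WT at day 20 and 4.77 to 5.03 at day 26, and *Gapdh* itself fell over that time (log2 fold change -0.91 ± 0.159, adjusted p = 9.5e-05, edgeR). The sum of *Aldoart1* and *Aldoart2* over *Aldoa* went from 0.00878 to 0.0203 at day 20 to 0.968 to 1.18 at day 26. That of *Pgk2* over *Pgk1* went from 6.51 to 12.5 to 42.7 to 44.5. *Ldhc* over *Ldha* spanned 4.82 to 8.0 at day 20 and 6.16 to 6.37 at day 26, so the ranges overlapped. *Eno4* over *Eno1*, the somatic enolase, spanned 6.55 to 21.6 and 21.8 to 37.2. Day 26 lay above day 20 in 4 of these 5 ratios, and the *Ldhc* ratio was the one that did not move beyond its spread.

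Among the transcripts of *Ldha*, *Ldhb* and *Ldhc*, *Ldhc* held the largest share throughout, and a larger one at day 26 than at day 20 in WT. *Ldhal6b*, a further gene of this family, is outside that sum. Its mean was 405 CPM in WT at day 20 and 723.5 CPM at day 26, beside *Ldha* at 382 and 673 CPM. *Ldhc* made up 71.8% to 81.0% of the 3 per kilobase in WT at day 20 and 82.9% to 83.3% at day 26, without overlap. *Ldha* over *Ldhb* went from 0.972 to 1.56 at day 20 to 3.17 to 4.28 at day 26. These ratios depend on the transcript length used: with principal transcripts in place of merged exons, *Gapdhs* over *Gapdh* at day 26 was 1.93 to 2.03 and the *Aldoart* sum over *Aldoa* was 0.502 to 0.612. Of 75-base windows in *Gapdh* and *Eno1*, 22.6% and 23.0% recur in other genes, so both are lower estimates.

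**Figure D2:**
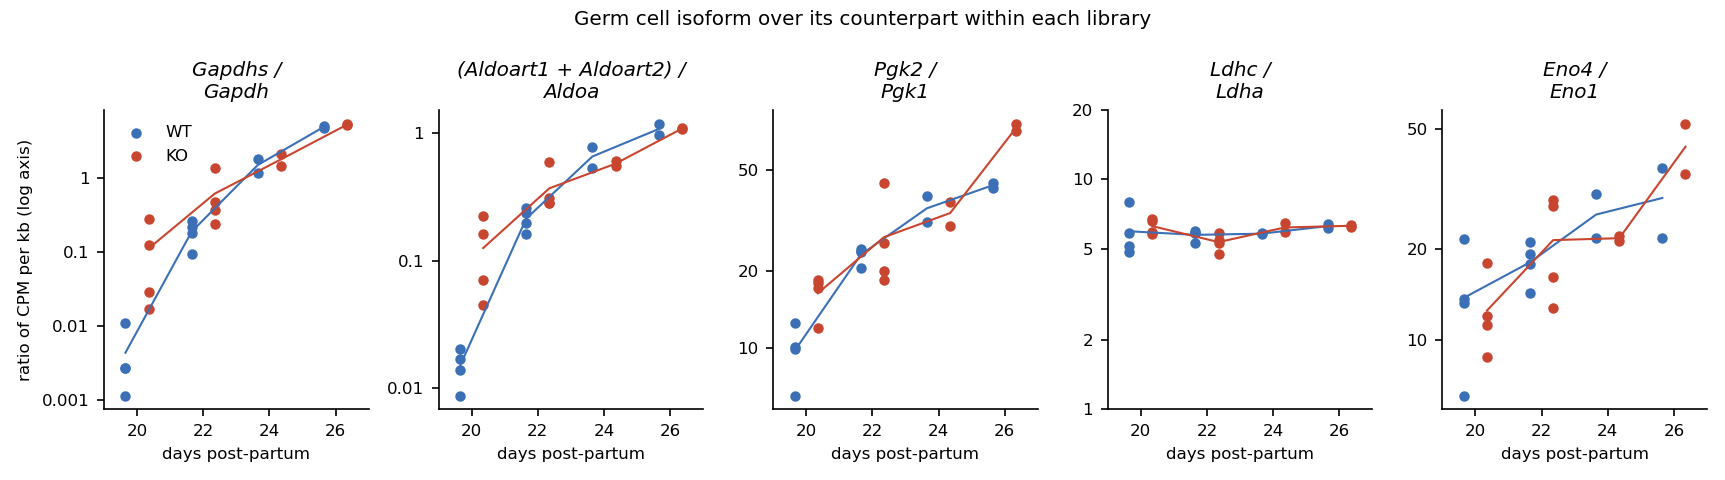
Ratio of each germ cell form to its counterpart within each library, in CPM per kilobase of merged exons (log axis), against age in days post-partum, with 1 point per library and a line through group means (WT blue, KO red). *Gapdhs* over *Gapdh* climbs from 0.00115 to 5.03 over the WT libraries while *Ldhc* over *Ldha* lies between 4.73 and 8.0 in all libraries.

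The effect of *Atad2* loss was asked at each day by comparing KO with WT libraries. At day 20, 4 of the 10 genes were higher in KO and none was lower. These were *Gapdhs*, *Aldoart1*, *Aldoart2* and *Pgk2*, all germ cell forms. Over all 17170 genes, 3.34% were called at this day in either direction and 2.98% were called higher.

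*Gapdhs* was at 2.83, 1.37, 10.6 and 20.1 CPM in the 4 KO libraries against 0.105 to 0.936 CPM in WT. In pairs, this was 39, 21, 160 and 297 against 3, 1, 4 and 13. The groups did not overlap, KO_d20_3 and KO_d20_4 were the highest, and the log2 fold change was 4.45 ± 0.896 (adjusted p = 0.011, edgeR). *Aldoart1* was at 2.68, 1.37, 9.38 and 10.3 CPM in KO against 0.405 to 1.22 CPM in WT, with a log2 fold change of 3.04 ± 0.574 (adjusted p = 0.00901). *Aldoart2* was at 4.79, 2.42, 11.4 and 17.2 CPM in KO against 0.632 to 1.42 CPM in WT, with a log2 fold change of 3.06 ± 0.546 (adjusted p = 0.00676). In all 3 genes the KO libraries spread over about an order of magnitude, and the order of the libraries was the same.

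*Pgk2* was at 176, 125, 123 and 149 CPM in KO against 55.3 to 99.3 CPM in WT at day 20. The groups did not overlap, and the log2 fold change was 0.80 ± 0.175 (adjusted p = 0.0131, edgeR). Here KO_d20_1 was the highest library and KO_d20_3 the lowest, unlike in the 3 genes above. Groups that did not overlap, with KO above, were found for 3.03% of all genes at this day.

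The other 6 genes did not pass the test at day 20. Their log2 fold changes ran from -0.20 ± 0.109 for *Ldhb* (adjusted p = 0.483) to 0.31 ± 0.155 for *Ldhc* (adjusted p = 0.445), with *Eno4* at 0.27 ± 0.179, *Ldha* at 0.20 ± 0.123, *Pgk1* at 0.05 ± 0.158 and *Aldoa* at -0.11 ± 0.144. Their KO and WT libraries overlapped in every case. For *Gapdh* the value was -0.06 ± 0.125 and for *Eno1* 0.42 ± 0.201 (adjusted p = 0.393). The ratio of *Gapdhs* to *Gapdh* was 0.017 to 0.274 in KO against 0.00115 to 0.0108 in WT, that of the *Aldoart* sum to *Aldoa* 0.0447 to 0.225 against 0.00878 to 0.0203, and that of *Pgk2* to *Pgk1* 12.0 to 18.5 against 6.51 to 12.5.

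Markers of haploid cells moved with these genes. Of the 10 round spermatid markers (such as the acrosomal *Acrv1* and *Spaca1* and the sperm channel subunits *Catsper3* and *Catsper4*), 9 were called higher in KO at day 20, and of 9 elongating spermatid markers 3 were, while none of the pachytene spermatocyte, Sertoli, Leydig or spermatogonial markers was called. Summed red blood cell markers ran from 13.5 to 19.4 CPM in KO against 5.11 to 12.8 CPM in WT, with none of the 3 tested called and *Hbb-bs* and *Hba-a1* at 0 in all libraries, and their part in the result was not tested. The summed round spermatid markers ran from 230 to 327 CPM in KO against 169 to 252 CPM in WT, and the summed elongating spermatid markers from 5.10 to 106 CPM against 1.26 to 9.00 CPM. A stage score, the mean centred log2 level of the round spermatid markers minus that of the pachytene markers, was -1.45, -2.64, -0.25 and 0.37 in the 4 KO libraries and -3.59, -3.57, -3.68 and -2.30 in WT. The groups overlapped through KO_d20_2 and WT_d20_4, and the order of the KO libraries by score was that of *Gapdhs*, *Aldoart1* and *Aldoart2*. In RNA of whole testis, a change in the number of cells of a type and a change in RNA per cell cannot be told apart.

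With the stage score as a covariate, none of the 4 genes was called at day 20, and 0.0291% of all genes were. The log2 fold change of *Gapdhs* became 0.86 ± 0.377 (adjusted p = 0.663), that of *Aldoart2* 0.66 ± 0.296, that of *Aldoart1* 0.54 ± 0.314 and that of *Pgk2* 0.47 ± 0.235. The score comes from the same libraries, and most of its round spermatid markers were themselves called higher in KO at day 20. Score and genotype are therefore partly confounded, and this fit cannot separate them. The score also includes *Catsper4*, one of the genes most like *Aldoart1* over the libraries. WT libraries of day 22 had scores of -0.45 to -0.02, below that of KO_d20_4. *Gapdhs* in KO at day 20, at 1.37 to 20.1 CPM, spanned the 7.36 to 17.8 CPM of WT at day 22.

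**Figure D3:**
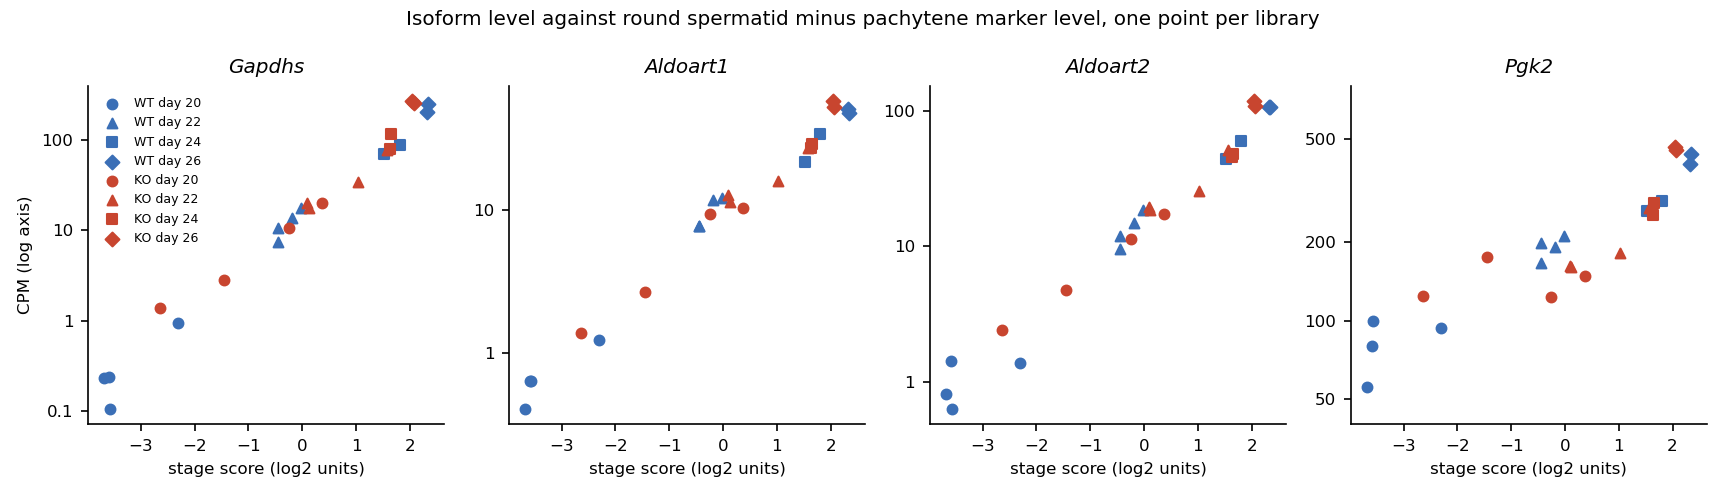
Level of 4 germ cell forms in CPM (log axis) against the stage score (round spermatid minus pachytene marker level, log2 units), with 1 point per library, colour for genotype and shape for day. *Gapdhs*, *Aldoart1* and *Aldoart2* are low where the score is low and high where it is high, from -3.68 to 2.34, and for *Pgk2* all 4 KO libraries of day 20 lie above the WT libraries of that day.

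Single libraries also bear on the day 20 calls. Without WT_d20_3, 2 of the 4 calls remained, *Gapdhs* at 4.23 ± 1.03 (adjusted p = 0.0595) and *Pgk2* at 0.66 ± 0.161 (adjusted p = 0.0538) being lost. Without WT_d20_2, the library that stood apart, *Gapdhs* was at 4.22 ± 1.08 (adjusted p = 0.0551), and without KO_d20_4 *Pgk2* was at 0.79 ± 0.191 (adjusted p = 0.0502). The folds were as large when only the 8 libraries of day 20 were fitted, at 4.46 for *Gapdhs* on the log2 scale, but no member was then called (adjusted p 0.158 to 0.177), beside 0.0328% of all genes. WT_d20_3 held epididymal markers at a summed 276 CPM, against at most 50.6 CPM in the other libraries of day 20, and their part in the result was not tested.

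At day 22 no member was called by edgeR, beside 2.51% of all genes, and 2 members had an unadjusted p under 0.05. *Gapdhs* was at 17.6, 77.1, 34.7 and 20.3 CPM in KO against 17.8, 7.36, 13.8 and 10.7 CPM in WT, with a log2 fold change of 1.59 ± 0.566 (adjusted p = 0.157). *Aldoart2* was at 18.6, 51.1, 25.4 and 19.4 CPM in KO, each above the highest WT library (18.4 CPM), as was the case for 3.64% of all genes at this day, and its log2 fold change was 1.07 ± 0.414 (adjusted p = 0.206). *Aldoart1* stood at 0.77 ± 0.419. KO_d22_2 was the highest library of day 22 for *Gapdhs*, *Aldoart1*, *Aldoart2*, *Pgk2*, *Ldhc*, *Ldha* and *Eno4*, and it also had the highest stage score of that day, 1.57 against -0.45 to 1.03 in the others. Without it the log2 fold change was 0.96 for *Gapdhs*, 0.63 for *Aldoart2* and 0.44 for *Aldoart1* (adjusted p 0.589 to 0.840). For *Pgk2* the log2 fold change was 0.01 ± 0.173 and for *Ldhc* -0.03 ± 0.155.

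At days 24 and 26 none of the germ cell forms passed the test. No member was called at day 24, beside 0.0874% of all genes, and no member had an unadjusted p under 0.05 there. Log2 fold changes lay between -0.17 ± 0.564 for *Aldoart2* and 0.29 ± 0.754 for *Gapdhs*. With 2 libraries per group, the standard errors of *Gapdhs*, *Aldoart1* and *Aldoart2* were 0.558 to 0.754 at these days, beside log2 fold changes of 0.77 to 1.59 for the same genes at day 22. At day 26 no member was called either, beside 0.0466% of all genes. The disrupted gene *Atad2* itself, at -1.25 ± 0.255, was not called at that day (adjusted p = 0.0628, edgeR). *Gapdhs* was at 258 and 270.1 CPM in KO and at 251 and 206 CPM in WT, a log2 fold change of 0.21 ± 0.748. The lower WT value is that of WT_d26_2, where epididymal markers summed to 545 CPM against 0.521 CPM in WT_d26_1. They summed to 128 CPM in KO_d26_2 and 0.344 CPM in KO_d26_1. At day 24 they summed to 716 CPM in WT_d24_2 and 157 CPM in KO_d24_2, against 0.31 CPM in WT_d24_1 and 0.138 CPM in KO_d24_1. Their part in the result was not tested.

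*Pgk1* and the lactate dehydrogenases gave the other day 26 values to follow. *Pgk1* was at 8.81 and 8.43 CPM in KO against 13.6 and 12.9 CPM in WT. The groups did not overlap, as was the case for 31.1% of all genes with KO below at this day, and the log2 fold change was -0.62 ± 0.224 (unadjusted p = 0.0114, adjusted p = 0.291, edgeR). With only the 4 libraries of day 26 in the fit it was called (adjusted p = 0.033), as were 12.8% of all genes. The ratio of *Pgk2* to *Pgk1* was 70.9 to 75.9 in KO and 42.7 to 44.5 in WT. *Ldhc* was at 2504 and 2410 CPM in KO against 1964 and 2059 CPM in WT (log2 fold change 0.29 ± 0.219, adjusted p = 0.639), and *Ldha* at 843 and 795 CPM against 646 and 700.2 CPM (0.28 ± 0.173, adjusted p = 0.553). For 7 members the KO libraries all lay above the WT libraries at day 26, as did 27.8% of all genes. Summed pachytene spermatocyte markers were also higher in KO at day 26, at 4560 to 4710 CPM against 3530 to 3980 CPM, and round spermatid markers at 1170 to 1250 CPM against 1010 to 1090 CPM. Summed endothelial markers were lower, at 32.8 to 37.2 CPM against 51.6 to 52.0 CPM, and peritubular myoid markers at 340 to 379 CPM against 419 to 496 CPM. Elongating spermatid (3180 to 3230 against 1900 to 3010 CPM) and Sertoli cell markers (1300 to 1310 against 1080 to 1250 CPM) were also higher, although the mean centred log2 level of the Sertoli cell markers was lower (-0.50 to -0.39 in KO against -0.40 to -0.19 in WT), and Leydig cell (1050 to 1170 against 1260 to 2050 CPM), macrophage (162 to 172 against 181 to 252 CPM) and spermatogonial markers (166 to 168 against 182 to 208 CPM) lower. The stage score was 2.05 and 2.07 in KO, below 2.32 and 2.34 in WT. These sums are given without a test, and the part of these cells in the result was not tested.

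**Figure D4:**
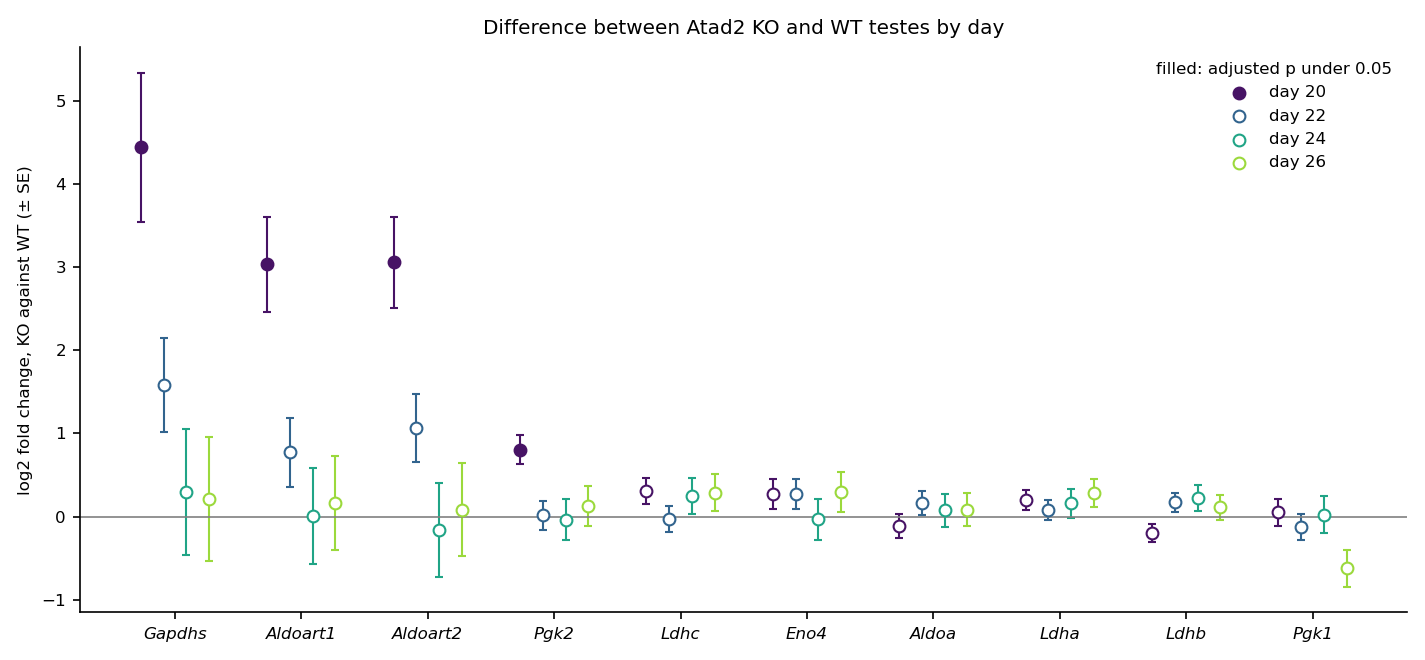
Log2 fold change of KO against WT (± SE) for each gene at days 20, 22, 24 and 26, from 1 edgeR fit over all 24 libraries, with filled symbols where the adjusted p-value was under 0.05. The filled symbols are the day 20 values of *Gapdhs* (4.45), *Aldoart1* (3.04), *Aldoart2* (3.06) and *Pgk2* (0.80).

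Averaged over the 4 days with equal weight, *Gapdhs* was higher in KO by 1.64 ± 0.388, *Aldoart2* by 1.01 ± 0.265 and *Aldoart1* by 0.99 ± 0.272 on the log2 scale (adjusted p = 0.0214, 0.0307 and 0.0352, edgeR), beside 7.08% of all genes called and 3.52% called higher. In the same comparison 6 of 10 round spermatid and 8 of 9 elongating spermatid markers and 1 of 7 Leydig cell markers were called higher, and 3 of 5 endothelial, 2 of 6 peritubular myoid and 1 of 5 macrophage markers lower, and their part was not tested. The other 7 did not pass, from *Pgk1* at -0.17 ± 0.0968 (adjusted p = 0.309) to *Pgk2* at 0.23 ± 0.106 (adjusted p = 0.202). None was called with the stage score as a covariate, beside 1.29% of all genes, where *Gapdhs* was at 0.45 ± 0.131 (adjusted p = 0.0992). None was called without KO_d24_1, WT_d24_2 or WT_d26_2 either, and 1 was called without WT_d20_3, WT_d22_4, KO_d24_2, KO_d26_1, KO_d26_2 or WT_d26_1. Without KO_d20_3, KO_d20_4, WT_d20_2 or WT_d22_2, 2 were called and *Aldoart1* was lost (adjusted p 0.051 to 0.0542). A joint test of equal KO effects at the 4 days called no member by edgeR, beside 0.00582% of all genes. Unadjusted p-values under 0.05 came from 4 members, *Aldoart2* (0.00254), *Aldoart1* (0.00517), *Gapdhs* (0.00966) and *Pgk2* (0.0139). DESeq2 called 3 members in that test, beside 1.65% of all genes, and edgeR called 2 without KO_d20_2, beside 0.817%. The comparison of KO with WT at day 20 and that of day 26 with day 20 in WT use the same WT libraries, as the joint test uses those of all days.

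The rest of the pathway was read from lists fixed by name, of 36 further enzymes and 27 genes of hexose, lactate and pyruvate transport and pyruvate entry, of which 33 and 24 were tested. From day 20 to day 26 in WT, 14 of the 33 enzymes were called higher and 2 lower, beside 24.4% and 18.1% of all genes, with a median log2 fold change of 0.525 beside -0.0442 over all genes. *Eno1b* (4.50 ± 0.480), an enolase gene that shares windows with *Eno1*, was among those that rose, and *Gapdh* fell. The fold of *Eno1b* starts near the limit of detection, with 0, 2, 3 and 2 pairs in WT at day 20. It ends at a low level, with 56 and 42 pairs at day 26. Of the 24 genes of the transport list, 11 were called higher and 4 lower (median 0.215). *Gpd2* (4.28 ± 0.405), the mitochondrial glycerol-3-phosphate dehydrogenase, and *Slc16a7* (3.43 ± 0.209), the monocarboxylate transporter MCT2, rose, while *Slc2a1* (-0.74 ± 0.171), the glucose transporter GLUT1, *Pdk1* (-0.72 ± 0.190), a pyruvate dehydrogenase kinase, and *Emb* (-0.79 ± 0.203), a chaperone of MCT2, fell. Relatives of *Slc2a1* and *Pdk1* went both ways by mean CPM in WT from day 20 to day 26. *Slc2a3* went from 821 to 1307, *Slc2a5* from 133.5 to 478.7, *Slc2a8* from 11.8 to 22.35, *Pdk2* from 41.7 to 123.5 and *Pdk3* from 65.3 to 74.4. *Slc2a4* went from 2.46 to 1.92 and *Pdk4* from 9.76 to 9.095.

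Between genotypes, 1 of the 33 enzymes and 1 of the 24 transport genes were higher in KO at day 20 and none was lower, beside 2.98% of all genes called higher: *Pgp* (0.61 ± 0.113, adjusted p = 0.00692), the phosphoglycolate phosphatase, and *Slc16a7* (0.70 ± 0.179, adjusted p = 0.0306). The median log2 fold change was 0.152 over the enzymes and 0.170 over the transport list beside 0.00464 over all genes, and at day 26 it was -0.189 and -0.0586 beside -0.0366. *Slc16a7* was also called at day 22 (0.70 ± 0.175, adjusted p = 0.0361), where KO_d22_2 stood at 157.6 CPM against 74.0 to 89.2 CPM in the other KO libraries and 53.9 to 69.9 CPM in WT. Without that library the value was 0.40 ± 0.126 (adjusted p = 0.176), and the call was also lost without WT_d22_2, WT_d22_3 or WT_d22_4 and with the replicate number as a block (adjusted p = 0.0947), the stage score (0.43, adjusted p = 0.297) or only day 22 in the fit (adjusted p = 0.182). Summed endothelial markers at day 22 ran from 25.9 to 54.0 CPM in KO against 61.4 to 68.2 CPM in WT. Elongating spermatid markers ran from 83.9 to 620 CPM against 38.6 to 98.5 CPM and overlapped, as did the sums of the other lists. Their part in the result was not tested. The day 20 call of *Slc16a7* was lost without KO_d20_3, KO_d20_4 or any 1 WT library of that day (adjusted p 0.0503 to 0.149), with the block (adjusted p = 0.0634) and once the stage score entered the fit (0.13 ± 0.211). That of *Pgp* was lost with the stage score at a fold change nearly as large (0.59 ± 0.171, adjusted p = 0.439), and both were lost with only day 20 in the fit, at 0.60 for *Pgp* and 0.70 for *Slc16a7*. At days 24 and 26 no gene of either list was called. Over the mean of the 4 days *Pgp* (0.28 ± 0.0685) and *Slc16a7* (0.42 ± 0.107) were called higher, and *Pck1* (-2.24 ± 0.594), phosphoenolpyruvate carboxykinase, and *Pdha1* (-0.46 ± 0.128), the somatic pyruvate dehydrogenase subunit on the X chromosome, lower. These are 2 of the 33 enzymes and 2 of the 24 transport genes tested, 1 higher and 1 lower in each list, beside 7.08% of all genes. None of these 4 calls held without WT_d26_2 (adjusted p 0.0536 to 0.164) or KO_d24_1 (adjusted p 0.0619 to 0.0844) or with the stage score as a covariate, where *Pgp* was at 0.27, *Pdha1* at -0.40, *Pck1* at -1.87 and *Slc16a7* at 0.22. That of *Pgp* was also lost without KO_d26_1, that of *Slc16a7* without KO_d24_2, KO_d26_2, WT_d24_2 or WT_d26_1, that of *Pck1* without KO_d24_2, KO_d26_1, KO_d26_2, WT_d20_3 or WT_d24_2, where it was -1.27, and that of *Pdha1* without KO_d20_4, KO_d24_2, KO_d26_1, KO_d26_2, WT_d20_3, WT_d22_2, WT_d22_4, WT_d24_2 or WT_d26_1 and with the block (adjusted p = 0.0714). *Pck1* was at 20.7 CPM in WT_d24_2 and 6.94 CPM in WT_d22_2, at 0.29 to 1.89 CPM in the other WT libraries and at 0.605 CPM or less in all KO libraries. Epididymal markers summed to 716 CPM in WT_d24_2, 545 CPM in WT_d26_2, 530 CPM in WT_d22_4 and 276 CPM in WT_d20_3, to 0.418 CPM in WT_d22_2 and to at most 157 CPM in the KO libraries, and their part in the result was not tested.

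Across all 24 libraries the members fell into like and unlike courses. Pearson correlations of log2 CPM were 0.995 between *Gapdhs* and *Aldoart2*, 0.991 between *Gapdhs* and *Aldoart1* and 0.936 between *Gapdhs* and *Pgk2*, 0.849 with *Ldha* and 0.784 with *Ldhc*. They were -0.795 between *Gapdhs* and *Ldhb* and -0.208 between *Gapdhs* and *Pgk1*. The libraries share days and genotypes, so these values mostly describe the course from day 20 to day 26.

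The genes with the most similar course to each member were found among all tested genes by the same correlation, as a description. For *Gapdhs* they were *Fam71d* (0.9975), *Spata21* (0.9974) and *Erich3* (0.9971), and for *Aldoart2* they were *Bcl2l14*, *Spz1* and *Fam71d* (0.9955 to 0.9963). For *Aldoart1* they were *1700071M16Rik*, *Catsper4* and *Lpcat2b* (0.9949 to 0.9955). *Pgk2* was closest to *1700003H04Rik*, *Spata17* and *Lkaaear1* (0.983 to 0.988), *Ldhc* to *Cct6b*, *Pebp4* and *Hrasls* (0.9655 to 0.976), *Ldha* to *Oscp1*, *Kif9* and *Dkkl1* (0.979 to 0.986) and *Eno4* to *Zdhhc5*, *March10* and *Trim27* (0.985 to 0.986). The remaining counterparts had weaker best matches, *Ldhb* with *Ctsl*, *Pak1* and *Sept6* (0.902 to 0.9145), *Aldoa* with *Irf2*, *Gpi1* and *Sorbs3* (0.871 to 0.888) and *Pgk1* with *Runx1*, *Egfr* and *Rbbp7* (0.805 to 0.812).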

How the data were processed

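Testis RNA was depleted of ribosomal RNA, made into strand-specific libraries and sequenced as read pairs. Per the labels and the study's methods, the authors aligned the reads to mm10 with STAR 2.7.11b and counted pairs with HTSeq, discarding those with several alignments. The version of the gene models is not given in the sources used here. Each of the 24 deposited tables lists counts by gene symbol for 1 library, neither normalized nor pooled. Pairs outside any gene in the counted way made up 45.1% to 58.5% of each table and stayed out of library sizes. The authors normalized with DESeq2 1.22.2.

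Counts were scaled by TMM, filtered with filterByExpr (minimum count 10), which kept 17170 genes, and tested with the robust quasi-likelihood test of edgeR 4.0.16 (R 4.3.3, limma 3.58.1) in 1 fit over 24 libraries with 8 group coefficients, two-sided, with Benjamini-Hochberg adjustment over all genes and a threshold of 0.05. The labels give 4 replicates per genotype at day 20, 1 more than the study's methods, and all were used. CPM use the TMM sizes, log2 CPM a prior count of 2, and levels per kilobase the merged exons of GENCODE M21, by symbol. Limits of detection cover counting error only. Replicates of every group differed by more than sampling noise. The fit was tested on simulated data. Alternatives were RLE and total-count scaling, no filter, DESeq2 1.42.0, each library left out, the replicate number as a block, only the groups compared, the stage score as a covariate and other transcript lengths.

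Genes named were all 10 members, *Gapdh* and *Eno1* as counterparts, and for each KO against WT comparison and for day 26 against day 20 in WT up to 4 called pathway genes with the largest rise and 4 with the largest fall. One gene that this rule names is not reported here. For likeness, the 3 genes with the highest Pearson correlation were taken. The members and lists were chosen with earlier results of these data known. *Aldoart1* has no promoter shown.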

Additional observations from a re-analysis of the deposited data

Results flagged for a closer look

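In 40 groups of 4 libraries (10 genes in each of 4 groups), 3 held a library whose gap to its nearest neighbour was large against the range of the group, where chance gives about 5% of groups. *Gapdhs* in WT_d20_4 was at 0.936 CPM, above the other WT libraries of day 20 at 0.105 to 0.236 CPM, and this library also had the highest stage score of its group, -2.30. *Ldhc* in KO_d22_2 was at 1787 CPM, above 1294 to 1373 CPM in the other KO libraries of day 22, and this library had the highest stage score of that day. *Ldhb* in WT_d20_3 was at 161 CPM, above 139.5 to 142.5 CPM in the other WT libraries of day 20.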

How the results depend on the processing

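With RLE scaling, total-count scaling, no filter or DESeq2, the number of members called stayed within 1.5 times of the reported number in every comparison other than the joint test of the KO effect over days, where DESeq2 called 3 against 0. With the stage score as a covariate, 0 members were called at day 20 and 0 over the mean of the days. With only the groups compared in the fit, 0 were called at day 20, 1 at day 26, 5 from day 22 over day 20 in WT, 5 from day 24 over day 22 and 3 from day 26 over day 24; the share of all genes called also moved in these fits. Leaving out 1 library gave 2 to 4 members at day 20, 0 to 3 over the mean of the days, 0 to 2 in the joint test and 0 to 3 from day 24 over day 22 in WT. The cause was not tested.

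Directions of values that did not pass the test turned in some fits. With the stage score, the log2 fold change of *Pgk1* at day 20 was -0.13, those of *Pgk2*, *Aldoart1* and *Aldoa* at day 22 were -0.15, -0.24 and -0.028, and that of *Aldoa* over the mean of the days was -0.095. Without the filter *Ldhc* at day 22 was at 0.021. Without single libraries, *Pgk1* at day 20 ranged from -0.069 to 0.13. At day 22 *Pgk2* ranged from -0.19 to 0.091 and *Ldhc* from -0.15 to 0.046. At day 24 *Pgk2* ranged from -0.12 to 0.036, *Pgk1* from -0.076 to 0.15, *Aldoart1* from -0.27 to 0.37, *Aldoart2* from -0.35 to 0.069 and *Eno4* from -0.12 to 0.057. At day 26 *Ldhb* ranged from -0.039 to 0.29 and *Aldoa* from -0.041 to 0.23. The 4 calls at day 20 kept a positive sign in all alternatives run, and *Gapdhs* ranged from 3.63 to 5.40 without single libraries. Where a group of 2 lost a library, the remaining one was assumed to vary like the other groups.

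Replicate numbers are shared by WT and KO, but the deviations of same-numbered libraries correlated at 0.0705 to 0.41 at day 20, -0.459 to -0.0254 at day 22, 0.39 at day 24 and 0.416 at day 26, so the numbers were not taken as pairs. With the replicate number as a block, 1 member, *Gapdhs*, was called from day 24 over day 22 in WT, *Aldoa* from day 20 to day 26 in WT passed the test (adjusted p = 0.0495), *Pgk1* in KO did not (adjusted p = 0.0768), and *Pgk2* at day 22 was at -0.020. Scaling to total counts moved the median log2 fold change of all genes from day 20 to day 26 to -0.146 in WT and -0.264 in KO, and that of KO against WT at day 26 to -0.104. *Gapdhs*, *Aldoart1* and *Aldoart2* at day 20, with 1 to 19 pairs per WT library, are limited by depth.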
